A study of Mus musculus with 6 samples.

Results

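The YAP and TAZ pathway genes were a set of 10 genes, chosen by name with earlier results of these data known. All 10 were found among the 17204 genes measured. They comprise the coactivator genes Yap1 and Wwtr1 (which encodes TAZ) and Tead1, the gene of a DNA-binding partner. The target genes are Ccn2 (also called Ctgf), Ccn1 (Cyr61), Ankrd1, Amotl2, Axl and Lats2. The set also holds Ajuba, which encodes a LIM-domain scaffold of the Hippo pathway. Expression was measured in cultured mouse skin squamous cell carcinoma (SCC) cells, with 3 SCC FAK-wt and 3 SCC FAK-/- samples, described by the submitters as biological replicates, each on its own Affymetrix array. The cells came from chemically induced tumors of K14CreER FAKflox/flox mice on the FVB background, in which Cre is driven by a keratin promoter and the fak gene is flanked by loxP sites. SCC FAK-/- cells are a single clone isolated after 4-hydroxytamoxifen treatment had removed fak, and SCC FAK-wt cells are the same clone after a retrovirus restored wild-type focal adhesion kinase (FAK), kept in hygromycin. Both lines thus share the deletion, and re-expressed FAK, the retroviral vector and hygromycin selection cannot be told apart as sources of a difference. The arrays measured RNA from whole cultures, in which a change in every cell and a change in the share of cells that express a gene cannot be told apart. The medians of the 6 arrays lay between 5.90 and 5.97 on the log2 scale. The fak gene itself and the markers of squamous epithelium were not analysed here, because the table lists Ensembl identifiers without gene symbols, so neither the FAK label nor the labelled cell type was checked against the values.

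YAP and TAZ are transcriptional coactivators that have no DNA-binding domain and reach their target genes through TEAD factors. The Hippo kinases LATS1 and LATS2 phosphorylate them, which holds them in the cytoplasm, and low cell density, a stiff matrix and adhesion signaling through integrins are known to favor their nuclear form. In squamous epithelium they are known for their part in the proliferation of basal cells and in carcinoma growth. Some of their targets feed back on the pathway, since LATS2 inhibits YAP and TAZ by phosphorylation and AMOTL2 binds and retains them. AJUBA, a scaffold of the pathway, holds LATS kinases at sites of junctional tension.

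Setting SCC FAK-wt against SCC FAK-/- cells asks which of these transcripts differ between the lines. Both lines derive from a single clone, so the p-values measure the spread among samples of a line. They do not measure a spread among clones or separate transductions. Ankrd1 and Ajuba were higher in SCC FAK-wt cells, 3.19-fold and 2.15-fold, at an adjusted p under 0.05 (limma, Benjamini-Hochberg adjustment over all 17204 genes). Amotl2 was 1.49-fold higher and Ccn2 1.34-fold lower at an unadjusted p under 0.01, but neither passed after adjustment. Yap1, Wwtr1, Tead1, Ccn1, Axl and Lats2 passed neither threshold. Of the 10 genes, 4 had a positive log2 fold change and 6 a negative one, and the median was -0.095, against 0.016 over all genes.

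The 10 genes were chosen with earlier results of these data known, so the shares below are a description and no independent test. At an adjusted p under 0.05, 2 of the 10 genes had higher values in SCC FAK-wt cells, against 0.820% of all genes, and 0 were lower, against 1.10% of all genes. The count of 2 higher genes fell to 1 or 0 under 11 of 15 alternative fits, among them each fit that left out an array. At an unadjusted p under 0.05 with limma, 3 of the 10 were higher, against 7.76% of all genes, and 1 was lower, Ccn2, against 7.74%. At an unadjusted p under 0.01, 3 of the 10 were higher, against 3.19% of all genes, and 1 was lower, against 3.66%. The 3 arrays of each line did not overlap for 3 genes higher in SCC FAK-wt (11.5% of all genes) and for 4 genes lower in it (10.0% of all genes). The lower genes without overlap were Yap1, Wwtr1, Ccn2 and Ccn1. For Yap1, Wwtr1 and Ccn1 the nearest arrays of the lines were 0.12, 0.040 and 0.025 log2 units apart, and none of them passed any of these thresholds. By the size of the change they lay at percentiles 65.6, 74.2 and 32.0 of all genes.

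**Figure D1:**
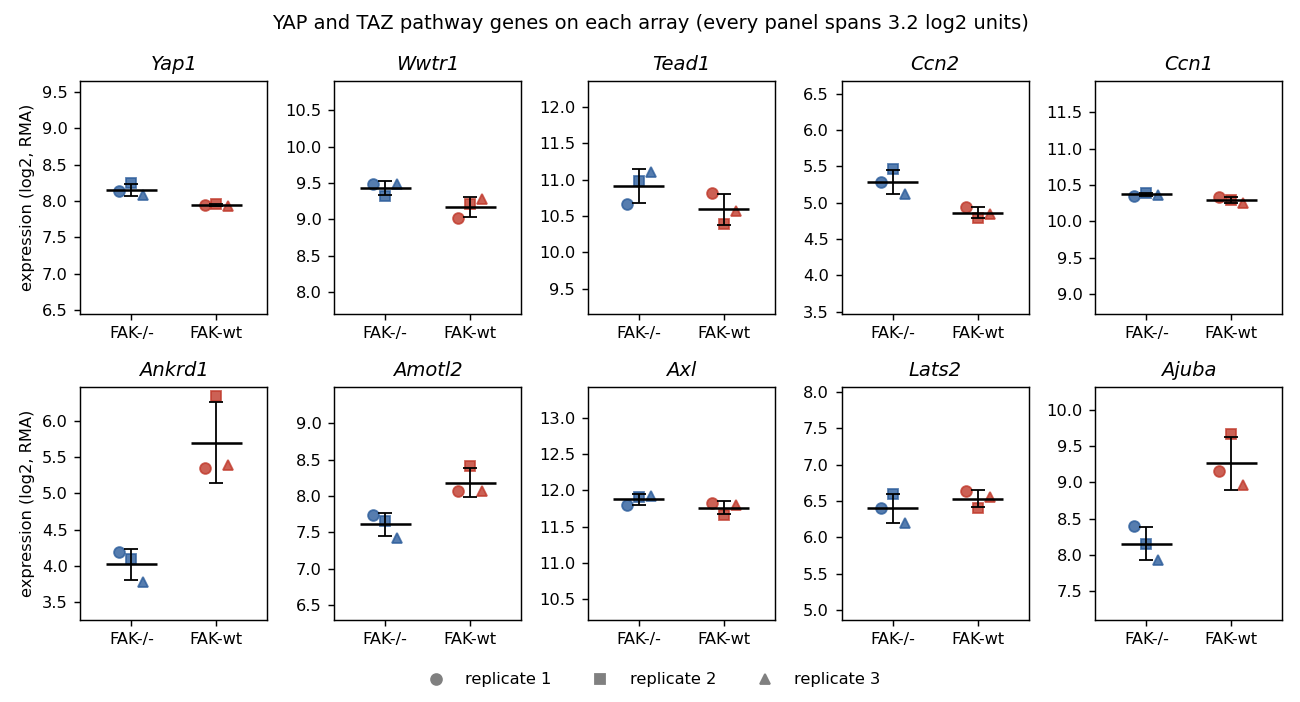
Expression of each gene on the log2 scale (vertical axis) in SCC FAK-/- (blue) and SCC FAK-wt cells (red), with a symbol for each replicate, a horizontal line for the mean and a bar for 1 SD (n = 3), every panel spanning the same number of log2 units. Ankrd1, Ajuba and Amotl2 lie higher on all 3 SCC FAK-wt arrays, while Ccn1 and Axl differ little between the lines.

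Ankrd1 (ENSMUSG00000024803) encodes a nuclear ankyrin repeat protein and is among the most used reporters of YAP and TAZ activity. Its log2 value was 5.35, 6.34 and 5.39 in SCC FAK-wt replicates 1, 2 and 3 and 4.19, 4.09 and 3.78 in SCC FAK-/- replicates 1, 2 and 3. All SCC FAK-wt arrays were above all SCC FAK-/- arrays, with 1.16 log2 units between the nearest arrays of the lines, and SCC FAK-wt replicate 2 was the highest. The means were 5.69 ± 0.56 (SD, n = 3) and 4.02 ± 0.21 (SD, n = 3), so that the log2 fold change was 1.67 with a standard error of 0.27 (adjusted p = 0.0325, limma). The 95% interval of the fold was 2.05 to 4.95, before any adjustment for the number of genes. By the size of its change Ankrd1 lay at percentile 99.7 of all genes, and by its p it ranked 210 of 17204. Its mean level lay at percentile 36.6 of all genes, a description of signal that also reflects how well the probes hybridize. The adjusted p stayed under 0.05 without SCC FAK-wt replicate 2 (log2 fold change 1.35, limma adjusted p = 0.0223). It rose to 0.0545 and 0.0536 when replicate 1 or 3 of SCC FAK-wt was left out, and to 0.0989, 0.105 and 0.117 when replicate 1, 2 or 3 of SCC FAK-/- was (limma).

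Ajuba (ENSMUSG00000022178) encodes a LIM-domain protein of cell junctions that binds LATS kinases and restrains them. It measured 9.15, 9.67 and 8.97 in SCC FAK-wt replicates 1, 2 and 3 and 8.40, 8.15 and 7.93 in SCC FAK-/- replicates 1, 2 and 3 (log2). The lines did not overlap, with 0.57 log2 units between the nearest arrays, and SCC FAK-wt replicate 2 was again the highest. The means were 9.26 ± 0.36 (SD, n = 3) in SCC FAK-wt and 8.16 ± 0.23 (SD, n = 3) in SCC FAK-/- cells, so that the log2 fold change was 1.10 with a standard error of 0.20 (adjusted p = 0.0494, limma). The 95% interval of the fold was 1.54 to 2.99. The adjusted p is close to the threshold and exceeded it when any 1 of the 6 arrays was left out, at 0.0567 to 0.156 (limma).

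Amotl2 (ENSMUSG00000032531) encodes a member of the angiomotin family, which binds YAP and TAZ outside the nucleus, and is itself a target of theirs. It measured 8.07, 8.42 and 8.07 in SCC FAK-wt replicates 1, 2 and 3 and 7.74, 7.65 and 7.43 in SCC FAK-/- replicates 1, 2 and 3 (log2). The lines did not overlap, and the nearest arrays were 0.32 log2 units apart. The log2 fold change was 0.58 with a standard error of 0.14 (adjusted p = 0.0993, limma). The unadjusted limma p was 0.00435, and the exact two-sided permutation test over the 6 arrays gave p = 0.1, the smallest that 3 arrays against 3 allow. That test gave the same p for Ankrd1, Ajuba, Yap1, Wwtr1, Ccn2 and Ccn1, so it cannot rank these genes. Leaving out replicate 2 of SCC FAK-wt raised the unadjusted limma p to 0.0121, and leaving out replicate 2 or 3 of SCC FAK-/- raised it to 0.0117 or 0.0162.

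Lats2 (ENSMUSG00000021959), the other inhibitor among the targets, encodes a kinase that phosphorylates YAP and TAZ. It measured 6.64, 6.40 and 6.55 in SCC FAK-wt and 6.40, 6.60 and 6.20 in SCC FAK-/- replicates 1, 2 and 3 (log2). The arrays of the lines overlapped, with SCC FAK-/- replicate 2 higher than SCC FAK-wt replicates 2 and 3. The log2 fold change was 0.14 (95% interval -0.18 to 0.45, limma adjusted p = 0.718). The change of Amotl2 exceeded that of Lats2 by 0.44 log2 units (standard error 0.20, computed without the moderated variances used for single genes). The exact two-sided permutation test of this difference over arrays gave p = 0.1, the smallest that 3 arrays against 3 allow. The pair was not set at the outset but picked after the values were seen.

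Ccn2 (ENSMUSG00000019997) encodes a secreted matricellular protein and, with Ankrd1, is a standard readout of YAP and TAZ. It measured 4.95, 4.79 and 4.85 in SCC FAK-wt replicates 1, 2 and 3 and 5.28, 5.46 and 5.12 in SCC FAK-/- replicates 1, 2 and 3 (log2). Every SCC FAK-wt array was below every SCC FAK-/- array, by 0.17 log2 units at the nearest. The means were 4.86 ± 0.077 (SD, n = 3) and 5.28 ± 0.17 (SD, n = 3), so that the log2 fold change was -0.42 with a standard error of 0.12 (adjusted p = 0.137, limma). The unadjusted limma p was 0.00863, with an exact two-sided permutation p of 0.1, again the smallest possible. Its mean level was at percentile 39.5 of all genes. Without any 1 of the arrays other than SCC FAK-/- replicate 3 the unadjusted p was 0.0143 to 0.0322, above 0.01.

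Ankrd1 had a log2 fold change 2.09 above that of Ccn2, a gene not called after adjustment. The unmoderated standard error of this difference was 0.37. The within-array difference of their values did not overlap between the lines (exact permutation test, two-sided, p = 0.1, the smallest possible). Ankrd1 was higher and Ccn2 lower on every SCC FAK-wt array, so this outcome was already fixed and the test adds nothing. The difference between the genes on an array is unaffected by any shift of that whole array. This pair, like the other pairs of genes compared here, was picked after the values were seen.

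Ccn1 (ENSMUSG00000028195), the paralog of Ccn2, encodes another secreted integrin ligand. It measured 10.33, 10.30 and 10.25 in SCC FAK-wt and 10.35, 10.40 and 10.36 in SCC FAK-/- replicates 1, 2 and 3 (log2). The groups did not overlap, but only 0.025 log2 units lay between the nearest arrays. The log2 fold change was -0.079 (95% interval -0.29 to 0.13, limma adjusted p = 0.760). Its mean level was at percentile 94.6 of all genes. The log2 fold change of Ccn1 was 0.34 above that of Ccn2 (unmoderated standard error 0.095, exact permutation test, two-sided, p = 0.1, the smallest possible). This standard error is not on the same footing as the moderated ones of single genes. This pair too was picked after the values were seen.

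Axl (ENSMUSG00000002602) encodes a receptor tyrosine kinase that YAP and TAZ are known to induce in carcinoma cells. It measured 11.83, 11.67 and 11.80 in SCC FAK-wt and 11.79, 11.91 and 11.92 in SCC FAK-/- replicates 1, 2 and 3 (log2). The arrays overlapped, and its mean level was at percentile 99.0 of all genes. The log2 fold change was -0.11 (95% interval -0.35 to 0.12, limma adjusted p = 0.686).

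The coactivator genes did not pass either threshold. Yap1 (ENSMUSG00000053110) measured 7.95, 7.96 and 7.93 in SCC FAK-wt and 8.14, 8.25 and 8.09 in SCC FAK-/- replicates 1, 2 and 3 (log2), a log2 fold change of -0.21 (95% interval -0.43 to 0.016, limma adjusted p = 0.359). Wwtr1 (ENSMUSG00000027803) measured 9.02, 9.21 and 9.28 in SCC FAK-wt and 9.49, 9.32 and 9.49 in SCC FAK-/- replicates 1, 2 and 3 (log2), a log2 fold change of -0.26 (95% interval -0.53 to 0.0034, limma adjusted p = 0.328). For both genes the lines did not overlap, with 0.12 and 0.040 log2 units between the nearest arrays. The changes of Yap1 and Wwtr1 differed from each other by 0.056 log2 units (unmoderated standard error 0.13, exact permutation test, two-sided, p = 0.5). RNA levels carry no measure of the phosphorylation or the location of the proteins.

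Tead1 (ENSMUSG00000055320) encodes a TEAD factor, a member of the family through which the coactivators contact DNA. The genes of other TEAD factors were not analysed here. It measured 10.82, 10.39 and 10.57 in SCC FAK-wt and 10.66, 10.99 and 11.11 in SCC FAK-/- replicates 1, 2 and 3 (log2). SCC FAK-wt replicate 1 was above SCC FAK-/- replicate 1, so that the lines overlapped. The log2 fold change was -0.32 (95% interval -0.70 to 0.055, limma adjusted p = 0.403).

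**Figure D2:**
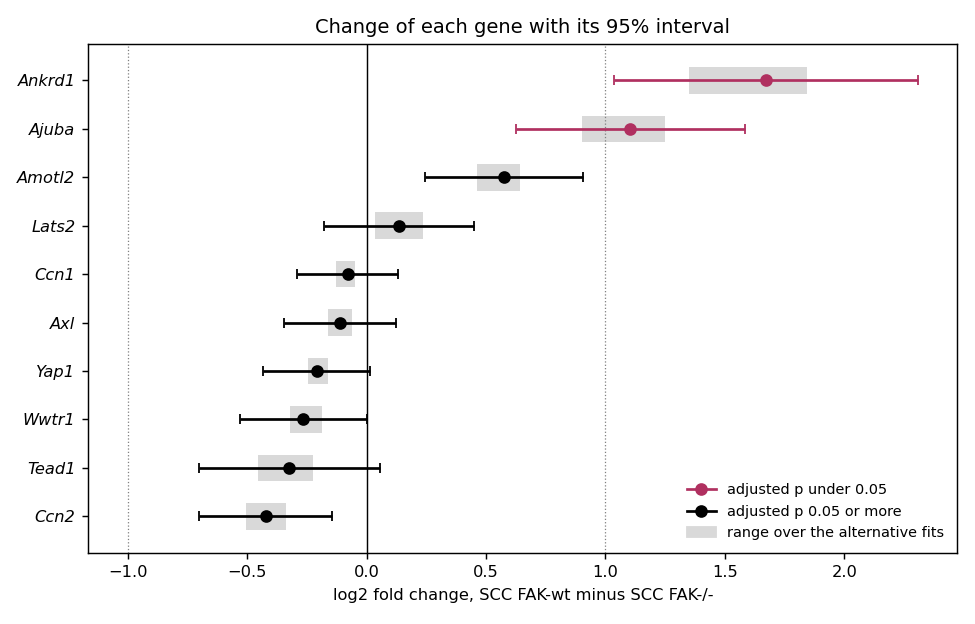
Log2 fold change of each gene (horizontal axis, positive is higher in SCC FAK-wt cells), with the unadjusted 95% interval from limma as a line, the range over the alternative fits as a grey bar and dotted lines at a 2-fold change. The intervals of Ankrd1 and Ajuba reach beyond 2-fold, and those of the other 8 genes lie inside it.

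The 95% intervals of the 8 genes other than Ankrd1 and Ajuba all excluded a change of 2-fold in either direction. Those of Ccn2, Amotl2, Ankrd1 and Ajuba excluded no change, before adjustment. The median size of the log2 fold change, without its sign, was 0.29 among the 10 genes and 0.14 over all genes. An array summary can understate the change of dim genes, and Ankrd1 and Ccn2 were the dimmest of the 10 by percentile of their mean level.

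**Figure D3:**
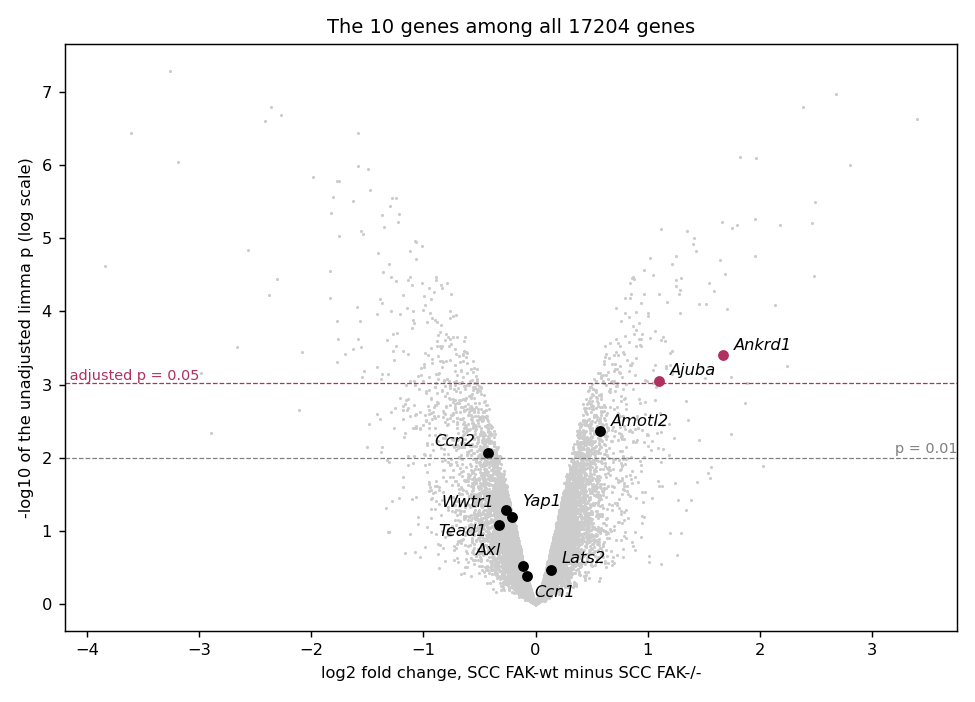
Log2 fold change (horizontal axis, SCC FAK-wt minus SCC FAK-/-) against the negative log10 of the unadjusted limma p (vertical axis) for all 17204 genes in grey and the 10 YAP and TAZ pathway genes as named points, with dashed lines at the unadjusted threshold of 0.01 and the adjusted threshold of 0.05. Ankrd1 and Ajuba lie above the adjusted threshold, Amotl2 and Ccn2 between the lines on opposite sides, and the other 6 genes below both.

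The 3 genes called higher at the unadjusted threshold also shared their highest array. SCC FAK-wt replicate 2 had the highest Ankrd1, Ajuba and Amotl2 of the 3 SCC FAK-wt arrays, and also the highest Yap1. It had the lowest Tead1, Ccn2, Axl and Lats2 of its line. SCC FAK-/- replicate 3 had the lowest values of Ankrd1, Ajuba and Amotl2 in its line, and also of Yap1, Ccn2 and Lats2. Sharing these extreme arrays was thus not particular to the 3 genes, but the sizes differed. On SCC FAK-wt replicate 2, Ankrd1, Ajuba and Amotl2 lay 0.65, 0.40 and 0.23 log2 units above the mean of their line, and Yap1 0.013. On SCC FAK-/- replicate 3, Ankrd1, Ajuba and Amotl2 deviated by -0.24, -0.23 and -0.18, and Yap1, Ccn2 and Lats2 by -0.070, -0.17 and -0.20. With the arrays weighted by a quality that limma estimated from all genes, the log2 fold changes of Ankrd1, Ajuba and Amotl2 were 1.56, 1.03 and 0.52. Likeness to Ankrd1 was measured as the root mean square difference between 2 genes' values over the 6 arrays, each gene centered on its own mean. Among the 17203 other genes, Ajuba was in place 9, at 0.32 log2 units, and Amotl2 in place 223, at 0.59. The closest gene was ENSMUSG00000063011, at 0.22 log2 units, and the next was ENSMUSG00000025739, at 0.24. Neither identifier was paired with a symbol here. This measure mainly follows the difference between the lines, which made up 85.4% of the variance of Ankrd1 over the arrays.

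Promoter sequences are shown for Ankrd1, Ajuba and Amotl2, the 3 genes higher in SCC FAK-wt at the unadjusted threshold, and for Ccn1, a target of the same factors that was not called. Each run is the 250 bases before the transcription start site, 5′ to 3′ on the strand of the gene, from RefSeq on GRCm38.p6. Capitals mark each GGAATG, the core of the site that TEAD factors bind, or its reverse complement CATTCC.
Ankrd1, chr19:36119845-36120094, minus strand: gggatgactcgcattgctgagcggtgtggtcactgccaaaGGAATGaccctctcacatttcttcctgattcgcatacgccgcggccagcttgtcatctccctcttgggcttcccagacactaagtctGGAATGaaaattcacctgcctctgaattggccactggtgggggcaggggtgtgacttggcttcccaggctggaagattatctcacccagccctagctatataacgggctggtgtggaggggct
Ajuba, chr14:54577662-54577911, minus strand: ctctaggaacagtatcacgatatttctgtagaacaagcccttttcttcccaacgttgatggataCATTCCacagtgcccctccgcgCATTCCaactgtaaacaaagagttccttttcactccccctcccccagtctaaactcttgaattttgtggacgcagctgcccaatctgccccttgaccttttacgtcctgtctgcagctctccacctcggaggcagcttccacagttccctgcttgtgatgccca
Amotl2, chr9:102717554-102717803, plus strand: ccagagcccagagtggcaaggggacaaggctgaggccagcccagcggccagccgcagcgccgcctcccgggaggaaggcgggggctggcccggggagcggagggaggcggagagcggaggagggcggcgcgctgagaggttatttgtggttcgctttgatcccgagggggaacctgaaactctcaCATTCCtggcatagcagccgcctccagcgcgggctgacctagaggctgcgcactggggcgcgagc
Ccn1, chr3:145649986-145650235, minus strand: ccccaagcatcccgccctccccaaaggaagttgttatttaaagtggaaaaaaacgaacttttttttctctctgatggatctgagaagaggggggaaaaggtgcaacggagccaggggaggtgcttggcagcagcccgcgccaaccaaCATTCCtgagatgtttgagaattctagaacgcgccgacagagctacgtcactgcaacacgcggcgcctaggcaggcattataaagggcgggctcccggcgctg

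The Ankrd1 promoter held GGAATG at 210 and 123 bases before the start site. The Ajuba promoter held CATTCC at 186 and 164 bases before it. Amotl2 had a CATTCC at 65 bases and Ccn1 at 103 bases before their start sites. Of the 10 genes, 8 had a promoter in the RefSeq table, and 7 of these 8 held at least 1 match on either strand. Counted by promoter, 8 of their 10 listed promoters held a match. The 10 genes were chosen for this pathway, 6 of them as targets, so these shares are no independent test. Among all 32851 promoters of the table, with the same 250 bases searched, 12.6% held at least 1 match and 0.992% held at least 2. The 2 genes with 2 matches were Ankrd1 and Ajuba. The 5 with 1 match were Amotl2, Ccn1, Axl, Yap1 and Wwtr1, which had log2 fold changes of either sign, and Lats2 held none in the windows of its 2 start sites. Tead1 and Ccn2 were not in the table. A match is a stretch of letters and no evidence of binding, and the matches of Wwtr1 before its 2 listed start sites are the same site.

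**Figure D4:**
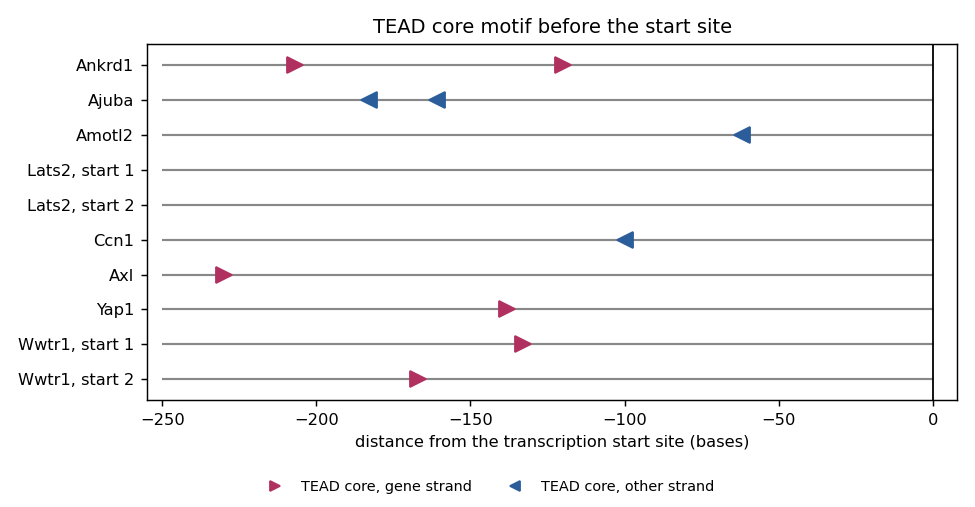
Position of the TEAD core (triangles) in the 250 bases before each start site (horizontal axis, bases from the start site at 0), pointing right for a match on the strand of the gene and left for the other strand. Ankrd1 and Ajuba have 2 matches each, Lats2 has none, and the other genes have 1 before each start site.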

How the data were processed

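Each of the 3 SCC FAK-wt and 3 SCC FAK-/- RNA samples was run on its own Affymetrix GeneChip. The authors obtained 1 value per Ensembl identifier and array by RMA in affy, and the deposited values are taken as log2 expression, a scale inferred from their range. The package version, probe mapping and background variant are not given in the sources used here. Samples were grouped by their labels. All 17204 genes were fitted without a filter in limma 3.58.1 (R 4.3.3), with cell line as the only term, moderated variances and Benjamini-Hochberg adjustment, and genes were counted at an adjusted p under 0.05 and an unadjusted p under 0.01. Standard errors of the differences between pairs of genes came from the variances within each line without moderation, unlike those of single genes. The script was tested on simulated data. The paper gives p under 0.01 for differentially expressed genes without naming the test behind it or an adjustment. The 10 genes, the lists and the comparisons were chosen with earlier results of these data known. All 10 genes are named, by the identifiers that came with their names. The reference table of symbols held 0 of the 17204 identifiers, so the planned lists of further YAP and TAZ targets, Hippo pathway components and cell type markers, and the fak gene, are not analysed here. Arrays have no read depth, and 3 arrays per line limit the precision. The 14 alternatives set at the outset were other variance moderation, scaling, array weights, a filter on dim genes, a replicate block and leaving out each array. The array spread as a covariate was added after seeing the data.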

Additional observations from a re-analysis of the deposited data

How the results depend on the processing

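All 10 genes kept the sign of their log2 fold change under each of the 15 alternatives. Ankrd1 ranged from 1.35 to 1.84, Ajuba from 0.90 to 1.25, Amotl2 from 0.46 to 0.64 and Ccn2 from -0.51 to -0.34. The adjusted threshold was met by Ankrd1 under 8 of the 15 and by Ajuba under 4, with adjusted p up to 0.187 and 0.205 (limma fits and the ordinary linear model). The count of 2 genes higher at an adjusted p under 0.05 became 1, Ankrd1, under quantile normalization, cyclic loess normalization and the replicate block, where Ajuba had adjusted p of 0.0546, 0.0536 and 0.0651. It became 0 without moderation of the variances and with the array spread as a covariate, and was 0 to 1 with an array left out. The count of 0 lower at this threshold did not move. The 3 genes higher at an unadjusted p under 0.01 became 1 without moderation and stayed within 1.5 times otherwise. The 1 gene lower, Ccn2, became 0 with trended and robust variances, without moderation and with the replicate block, and was 0 to 1 with an array left out. The causes of these moves were not tested. Fits without an array also have fewer samples. Arrays that share a replicate number did not deviate together: over all genes, r between their deviations was -0.034, -0.018 and 0.028, so the numbers were not taken to pair the samples.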

Other observations

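The spread within a line differed widely among the 10 genes. Yap1 spanned 0.031 log2 units over the 3 SCC FAK-wt arrays, at percentile 1.10 of all genes by this range, and 0.16 over the SCC FAK-/- arrays, at percentile 24.6. Ccn1 spanned 0.079 and 0.042, at percentiles 6.25 and 2.48. Ankrd1 spanned 0.99 over the SCC FAK-wt arrays, at percentile 95.6, and 0.41 over the SCC FAK-/- arrays, at percentile 72.2. Ajuba spanned 0.70 and 0.46, at percentiles 88.8 and 78.2. The range was wider in SCC FAK-wt for 6 of the 10 genes, against 53.7% of all genes.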
